A study of Mus musculus with 8 samples.

Results

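Described here are 10 genes of cytosolic protein folding: the 8 genes of the CCT chaperonin, *Tcp1*, *Cct2*, *Cct3*, *Cct4*, *Cct5*, *Cct6a*, *Cct7* and *Cct8*, and the constitutive chaperone genes *Hspa8* and *Hsp90ab1*. They were chosen by gene symbol, and all 10 symbols were found once among the 54532 genes of the count table. The table holds RNA-Seq read counts of LSK cells (Lin- Sca-1+ c-Kit+, the bone marrow fraction with stem and progenitor cells) that were sorted by the surface protein EpCAM. There were 4 *Zeb1-/- EpCAM+* and 4 *Zeb1-/- EpCAM-* libraries, and the libraries are labelled with replicate numbers 1 to 4 in both fractions. All cells came from *Zeb1* fl/fl;Mx1-Cre C57BL/6 mice of 8 to 12 weeks that had been given pIpC, which switches on Mx1-Cre, 14 days after the last dose. Both fractions are thus labelled as *Zeb1*-deleted, and the contrast holds no libraries from control mice. Mx1-Cre also recombines in cells of the marrow that are not blood cells, a limit of this model.

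CCT, also called TRiC, is a double ring in which each ring is built from one copy of each of its different subunits, and newly made actin and tubulin fold inside its cavity in a cycle driven by ATP. Prefoldin hands unfolded actin and tubulin to the chaperonin, and phosducin-like proteins bind it as cofactors. HSC70, the product of *Hspa8*, and HSP90-beta, the product of *Hsp90ab1*, are abundant chaperones of unstressed cells, each with a close stress-inducible relative (HSPA1A and HSPA1B for the first, HSP90-alpha for the second).

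The 8 libraries held 14114491 to 17073546 counts on genes, and 13560 genes passed edgeR's filter on low counts, all 10 chaperone genes among them. Levels are given as CPM, counts per 1000000 of the TMM-scaled library size, and fold changes are *EpCAM+* over *EpCAM-*, tested by quasi-likelihood in edgeR, adjusted by Benjamini-Hochberg over the 13560 genes and called at an adjusted p under 0.05. *Epcam* itself was at 187 ± 32.7 CPM in the *EpCAM+* fraction and at 3.86 ± 3.61 CPM in the *EpCAM-* fraction (SD, n = 4). *Zeb1* was at 19.5 ± 3.75 against 11.9 ± 2.14 CPM (SD, n = 4) and was called higher in the *EpCAM+* fraction (log2 fold change 0.72, adjusted p = 0.00798, edgeR). It had at least 129 counts in each library, and gene totals do not show whether those reads cover the deleted part. The LSK genes *Kit* and *Ly6a* had at least 2096 and 214 counts in each library. *Ly6a* was at 201 ± 106 CPM in *EpCAM+* and 41.3 ± 29.4 CPM in *EpCAM-* libraries (SD, n = 4). It was called higher in the *EpCAM+* fraction (log2 fold change 2.28, adjusted p = 0.00658, edgeR). In the *EpCAM+* fraction 7 of 9 LSK markers were called higher, beside 21.8% of all tested genes. The fractions also differed in markers of some other blood cells, where 20.8% of all tested genes were called lower and 21.8% higher. The summed level of 6 erythroid genes was 93.2 to 281 CPM in *EpCAM+* and 1994 to 6824 CPM in *EpCAM-* libraries, with 5 of 6 genes called lower in *EpCAM+* and *Hbb-bt* higher. The sum of 8 neutrophil genes was 1062 to 1819 against 11853 to 18525 CPM, with 4 of 8 called lower, and that of 6 mast cell and basophil genes was 69.2 to 92.4 against 237 to 497 CPM, with 4 of 6 called lower. The sum of 10 B and plasma cell genes was 467 to 4068 against 215 to 335 CPM, with 4 of 7 tested genes called higher and *Pax5* at 0 in all libraries. In that sum *Jchain* was at 199 to 3525 against 0 to 0.273 CPM. *Xbp1*, at a mean of 238 against 225 CPM, was not called. Of 8 dendritic cell genes, 3 of 6 tested were called higher, with sums of 169 to 798 against 228 to 313 CPM. Of 6 megakaryocyte genes, 1 of 5 tested was called higher, with sums of 128 to 367 against 83.5 to 286 CPM. The part of these other cells in the results below was not tested.

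All 8 CCT subunit genes were lower in *EpCAM+* than in *EpCAM-* cells, by 26.6% (*Cct3*) to 36.7% (*Tcp1*), and *Hsp90ab1* was lower by 16.4%. *Hspa8* had a fitted difference of the same size as *Hsp90ab1* and was not called. Together 9 of the 10 genes were called lower, beside 20.8% of all 13560 tested genes. Each of the 9 had all 4 *EpCAM+* libraries below all 4 *EpCAM-* libraries, a separation that 20.0% of tested genes showed. The 10 genes are highly expressed, and among the 544 tested genes with a mean CPM at least that of *Cct2*, the lowest of the 10, the share called lower was 45.0%. With the replicate number as a block, 10 of 10 genes were called lower, beside 24.7% of all tested genes. In bulk samples, fewer cells that carry an RNA and less of that RNA per cell cannot be told apart.

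**Figure D1:**
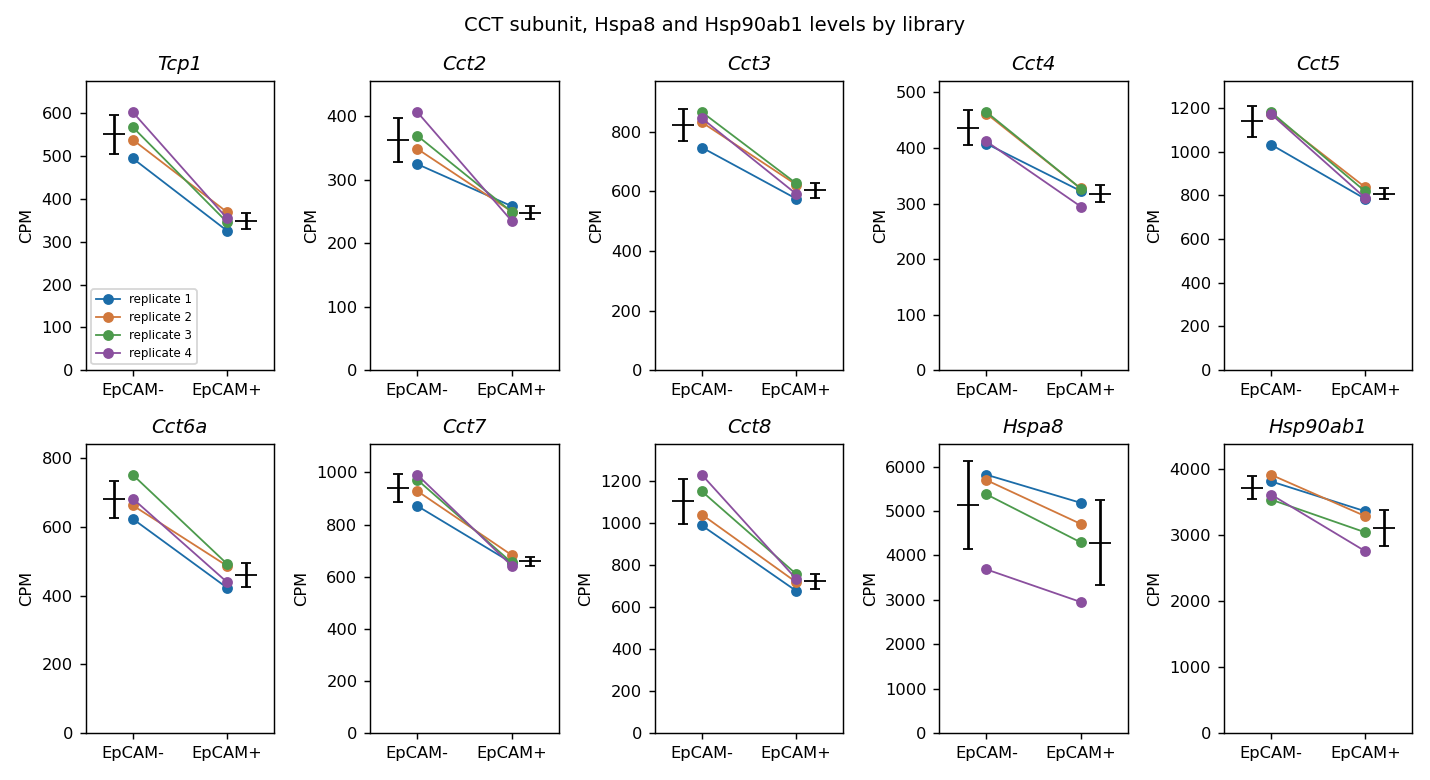
CPM (y axis, from 0) of each of the 10 genes in the *EpCAM-* and *EpCAM+* fractions. Points are libraries, lines join libraries with the same replicate number, and black bars beside them are the mean ± SD of 4 libraries. In all 8 CCT subunit panels and in *Hsp90ab1* every *EpCAM+* point lies below every *EpCAM-* point, while the *Hspa8* fractions overlap, with both replicate 4 libraries low.

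Promoters of the 10 genes were read from RefSeq (GRCm38.p6), 250 bases before to 50 bases after an annotated start. Of the 10 genes, 7 were matched there, with 9 windows, all but *Cct4*, *Hspa8* and *Hsp90ab1*. Shown are the 2 subunits with the largest and the 2 with the smallest difference among those 7, 5′ to 3′ on the gene's strand, with CCAAT boxes (CCAAT or ATTGG) and GC boxes (GGGCGG or CCGCCC) in capitals. The windows are chr17:12916079-12916378 (+ strand) for *Tcp1*, chr16:87495820-87496119 (- strand) for *Cct8*, chr15:31601797-31602096 (- strand, the upstream one of 2) for *Cct5* and chr3:88296885-88297184 (+ strand) for *Cct3*.
Tcp1: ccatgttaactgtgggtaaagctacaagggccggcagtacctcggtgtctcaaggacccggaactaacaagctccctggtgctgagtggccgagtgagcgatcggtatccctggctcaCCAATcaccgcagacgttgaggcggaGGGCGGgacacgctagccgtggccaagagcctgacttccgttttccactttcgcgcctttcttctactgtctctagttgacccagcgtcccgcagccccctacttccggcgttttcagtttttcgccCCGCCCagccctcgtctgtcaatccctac
Cct8: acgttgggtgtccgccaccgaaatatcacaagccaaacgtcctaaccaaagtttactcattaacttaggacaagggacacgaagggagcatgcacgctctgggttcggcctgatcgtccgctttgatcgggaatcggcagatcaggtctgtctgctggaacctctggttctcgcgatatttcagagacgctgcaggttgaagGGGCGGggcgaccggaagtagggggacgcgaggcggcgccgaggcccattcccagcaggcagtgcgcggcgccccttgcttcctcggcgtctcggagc
Cct5: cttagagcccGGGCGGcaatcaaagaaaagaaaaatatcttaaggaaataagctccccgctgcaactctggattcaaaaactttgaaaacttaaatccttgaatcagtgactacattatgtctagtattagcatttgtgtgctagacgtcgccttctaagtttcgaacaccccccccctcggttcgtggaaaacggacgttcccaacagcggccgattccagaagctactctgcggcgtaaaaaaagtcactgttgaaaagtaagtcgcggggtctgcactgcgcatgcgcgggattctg
Cct3: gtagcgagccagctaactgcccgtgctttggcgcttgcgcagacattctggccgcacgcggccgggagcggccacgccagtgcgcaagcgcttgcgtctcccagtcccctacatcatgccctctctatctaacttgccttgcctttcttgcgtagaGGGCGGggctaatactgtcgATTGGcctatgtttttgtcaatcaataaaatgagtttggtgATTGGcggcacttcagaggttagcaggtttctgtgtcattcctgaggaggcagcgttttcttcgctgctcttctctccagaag
A GC box was found in 8 of the 9 windows, beside 35.7% of the 32851 windows of all genes. By gene, 7 of 7 had one in at least 1 window, a count for which no share over all genes was taken. The downstream window of *Cct5* held none. A CCAAT box was found in 4 of 9 windows (*Tcp1*, *Cct3*, *Cct6a* and *Cct7*), beside 37.4% of all windows. In *Cct3* the 2 CCAAT boxes begin 74 and 33 bases before the start, in *Tcp1* the only one begins 132 bases before it, and in none of the windows do the 2 motifs share a base. Of the windows shown, those of *Tcp1* and *Cct3* hold both motifs, and those of *Cct8* and *Cct5* hold a GC box and no CCAAT box. Whether motif content goes with the fold changes was not tested. The E-box CACGTG of MYC, the E-box CACCTG (or CAGGTG) of ZEB1, the heat shock element GAANNTTCNNGAA or TTCNNGAANNTTC and the TATA box TATAAA were searched on both strands and had 0 matches in the 9 windows. All windows held them at 7.15%, 20.2%, 0.603% for each form of the heat shock element and 13.6%. The 2 forms of the heat shock element can overlap, and the base composition of the 9 windows ranged from 47.3% to 67.7% G or C (median of all windows 52.7%). The matches describe letters in these windows only.

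The chaperonin subunits were taken in order of the size of their difference. *Tcp1* encodes subunit CCT-alpha (ENSMUSG00000068039, chr17:12915701-12925067, + strand, GRCm38). It was at 326, 369, 346 and 355 CPM in *EpCAM+* replicates 1 to 4 and at 495, 539, 568 and 603 CPM in *EpCAM-* replicates 1 to 4. The fractions did not overlap, and the mean was 349 ± 18.2 against 551 ± 45.8 CPM (SD, n = 4), with a log2 fold change of -0.66 ± 0.081 SE (adjusted p = 0.000324, edgeR's quasi-likelihood test). *Cct8* encodes CCT-theta (ENSMUSG00000025613, chr16:87483326-87495873, - strand). It was at 677, 719, 758 and 735 CPM in *EpCAM+* replicates 1 to 4 and at 989, 1041, 1152 and 1231 CPM in *EpCAM-* replicates 1 to 4. Here the *EpCAM-* libraries were more spread than the *EpCAM+* libraries, again with no overlap. The mean was 722 ± 33.8 against 1103 ± 109 CPM (SD, n = 4), with a log2 fold change of -0.61 ± 0.089 SE (adjusted p = 0.000674, edgeR).

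*Cct6a* encodes CCT-zeta (ENSMUSG00000029447, chr5:129786998-129846371, + strand), and the table lists it as a processed transcript although it codes for protein. It was at 423, 487, 493 and 439.7 CPM in *EpCAM+* replicates 1 to 4 and at 624, 663, 753 and 683 CPM in *EpCAM-* replicates 1 to 4. Replicates 1 and 4 were the lowest *EpCAM+* libraries and replicate 3 the highest library of both fractions, and the fractions did not overlap. The mean was 461 ± 34.5 against 681 ± 53.8 CPM (SD, n = 4), with a log2 fold change of -0.56 ± 0.086 SE (adjusted p = 0.000841, edgeR). *Cct2* encodes CCT-beta (ENSMUSG00000034024, chr10:117051001-117063814, - strand). It was at 259, 250.2, 249.8 and 236 CPM in *EpCAM+* replicates 1 to 4 and at 325, 349, 369.8 and 407 CPM in *EpCAM-* replicates 1 to 4. Replicate 4 was the highest *EpCAM-* and the lowest *EpCAM+* library, so its pair differed most. The mean was 249 ± 9.58 against 363 ± 34.8 CPM (SD, n = 4), with a log2 fold change of -0.55 ± 0.081 SE (adjusted p = 0.000735, edgeR).

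*Cct7* encodes CCT-eta (ENSMUSG00000030007, chr6:85451514-85468475, + strand). It was at 654, 683, 654 and 642 CPM in *EpCAM+* replicates 1 to 4 and at 872, 929, 972 and 991 CPM in *EpCAM-* replicates 1 to 4. The 4 *EpCAM+* libraries lay close together, all below the *EpCAM-* libraries. The mean was 658 ± 17.4 against 941 ± 53.2 CPM (SD, n = 4), with a log2 fold change of -0.52 ± 0.073 SE (adjusted p = 0.000594, edgeR). *Cct5* encodes CCT-epsilon (ENSMUSG00000022234, chr15:31590800-31601804, - strand) and had the most counts of the 8 genes. It was at 783, 836, 817 and 788 CPM in *EpCAM+* replicates 1 to 4 and at 1032, 1172, 1181 and 1172 CPM in *EpCAM-* replicates 1 to 4. Replicate 1 was the low *EpCAM-* library and still lay above every *EpCAM+* library. The mean was 806 ± 25.2 against 1139 ± 71.4 CPM (SD, n = 4), with a log2 fold change of -0.50 ± 0.076 SE (adjusted p = 0.000853, edgeR).

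The smallest differences were those of *Cct4* and *Cct3*. *Cct4* encodes CCT-delta (ENSMUSG00000007739, chr11:22990519-23003780, + strand). It was at 323, 327, 327 and 295 CPM in *EpCAM+* replicates 1 to 4 and at 408, 462, 465 and 412 CPM in *EpCAM-* replicates 1 to 4. The *EpCAM+* replicate 4 library was the low one, and the fractions did not overlap. The mean was 318 ± 15.6 against 436 ± 31.0 CPM (SD, n = 4), with a log2 fold change of -0.46 ± 0.075 SE (adjusted p = 0.00120, edgeR). *Cct3* encodes CCT-gamma (ENSMUSG00000001416, chr3:88297116-88321767, + strand). It was at 576, 623, 627 and 592 CPM in *EpCAM+* replicates 1 to 4 and at 747, 832, 866 and 846 CPM in *EpCAM-* replicates 1 to 4, and the mean was 604 ± 24.8 against 823 ± 52.3 CPM (SD, n = 4). Every *EpCAM+* library was again the lower one (log2 fold change -0.45 ± 0.076 SE, adjusted p = 0.00141, edgeR). Within same-numbered pairs, each of the 8 genes was lower in the *EpCAM+* library in 4 of 4 pairs, which follows from fractions that do not overlap. The median log2 difference over the 8 genes was -0.41 in pair 1, -0.48 in pair 2, -0.57 in pair 3 and -0.63 in pair 4.

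The CCT calls held in every alternative run. Over 127 refits of single subunit genes (other scalings, filters, DESeq2, the replicate block, each library left out), 127 kept the direction and stayed past the threshold. The fitted values ranged from -0.71 for *Tcp1* to -0.36 for *Cct3*. Of all genes called, 48.8% were lower with TMM, 36.4% with upper-quartile scaling and 37.3% with library totals, and with these 2 scalings the 8 log2 fold changes lay between -0.57 and -0.36. Beside all this, 13 of 16 proliferation genes were called lower with TMM and 9 of 16 with either of the other scalings, where 20.8% of all genes tested were called lower with TMM. The lower calls over all 13560 tested genes fell as well, from 2818 with TMM to 2083 with upper-quartile scaling and 2066 with library totals. The proliferation genes had sums of 3777 to 4280 CPM in *EpCAM+* and 4865 to 5727 CPM in *EpCAM-* libraries, and their part in the CCT values was not tested.

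**Figure D2:**
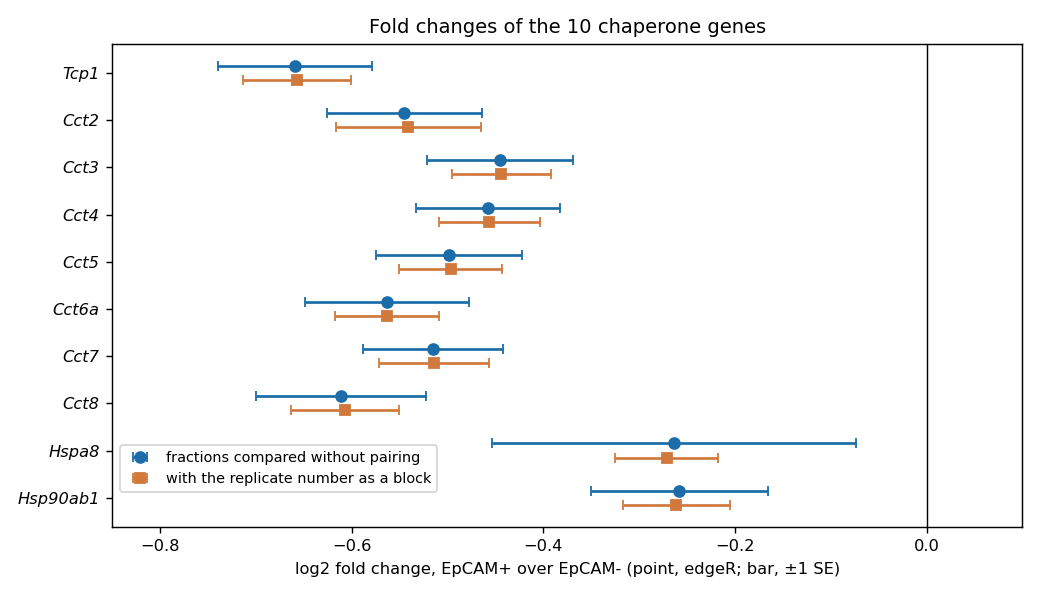
Log2 fold change (x axis, *EpCAM+* over *EpCAM-*) of the 10 genes, with bars of ±1 SE. Circles are the fit without pairing and squares the fit with the replicate number as a block. The points barely move, and the bar of *Hspa8* shrinks from 0.19 to 0.054 once the block is in the fit.

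The subunits were also compared as parts of the chaperonin's total. The summed CPM of the 8 genes was 4019.9, 4295, 4272 and 4081 in *EpCAM+* replicates 1 to 4 and 5492, 5986, 6327 and 6345 in *EpCAM-* replicates 1 to 4. As a share of that sum, *Tcp1* took 8.10% to 8.70% in *EpCAM+* and 8.98% to 9.51% in *EpCAM-* libraries. *Cct3* took 14.3% to 14.7% and 13.3% to 13.9%, respectively. These were the 2 subunits whose shares did not overlap between the fractions, *Tcp1* lower and *Cct3* higher in *EpCAM+*, and the other 6 overlapped. The shares are of reads, so longer transcripts weigh more, and they were not put to a test.

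Per kilobase of the exon length in the table, the order of levels was *Cct5*, *Cct8*, *Cct6a*, *Cct2*, *Cct7*, *Cct3*, *Tcp1*, *Cct4* in the *EpCAM-* fraction, from 412 ± 25.8 to 104 ± 7.37 CPM per kb. In the *EpCAM+* fraction *Tcp1* and *Cct4* changed places, and the range was 291 ± 9.13 to 69.4 ± 3.62 CPM per kb. *Cct5* exceeded *Cct8*, *Cct8* exceeded *Cct6a* and *Cct6a* exceeded *Cct2* in all 8 libraries. The neighbours *Cct2* and *Cct7*, *Cct7* and *Cct3*, and *Tcp1* and *Cct4* had overlapping ranges in both fractions, and none of these orders held in all 8 libraries. In *EpCAM-* the ranges of *Cct5* and *Cct8* and those of *Cct3* and *Tcp1* overlapped too. The authors' FPKM imply other gene lengths. By FPKM the first 3 genes were the same in both fractions, and *Cct2* fell from place 4 to place 7 in *EpCAM-* and to place 8 in *EpCAM+*. On the same per-kilobase scale *Hspa8* and *Hsp90ab1* stood far higher, at 1197 ± 230.4 and 1241 ± 58.1 CPM per kb in *EpCAM-* and 997 ± 224 and 1038 ± 91.3 CPM per kb in *EpCAM+* libraries.

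Deviations of each library from its fraction's mean log2 CPM show which genes varied together apart from the contrast. Over the 8 libraries the 28 pairs of CCT subunits had Pearson correlations from -0.018 to 0.957 (median 0.672). Those of *Hspa8* with the 8 subunits had a median of -0.23 and those of *Hsp90ab1* a median of -0.15, while *Hspa8* and *Hsp90ab1* correlated at 0.811. All these values share the same 8 libraries, their scaling and 2 fitted fraction means, and are a description. Of 5573 protein-coding genes with a mean log2 CPM of at least 5, the 5 whose deviations were most like the CCT mean were *Srsf6* and *Srsf2* (SR splicing factors), *Strap* (a WD repeat protein), *Srm* (spermidine synthase) and *Imp3* (a U3 snoRNP protein), with correlations of 0.964 to 0.985 over 8 libraries. All 5 were called lower in *EpCAM+* cells, beside 20.8% of all tested genes. The share was 45.0% among genes with a mean CPM at least that of *Cct2*, which *Strap* and *Imp3* do not reach. The 5 are the top of a ranking over these same libraries, and what their likeness rests on was not tested. Their log2 fold changes were -0.40 for *Srsf6*, -0.52 for *Strap*, -1.10 for *Srm*, -0.34 for *Imp3* and -0.52 for *Srsf2*, with adjusted p of 0.00134, 0.000441, 0.000134, 0.00428 and 0.00136 by edgeR.

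Some reads cannot be assigned to one gene with certainty. The amplification kit does not mark strand, and the strand setting of the counting is not given in the sources used here. In GENCODE M21, whose coordinates and exon lengths equal those of the table for all 10 genes, 16.9% of the exon bases of *Tcp1* are shared with the antisense genes *Acat3* and *Mrpl18* and a snoRNA. *Acat3* had 0 to 11 counts and *Mrpl18* 2924 to 4368 counts per library. The shared part was 15.3% for *Cct6a* (with antisense *Psph* and a snoRNA), 6.22% for *Cct8* (antisense *Usp16*), 6.09% for *Hspa8* (3 snoRNAs at 0 counts) and 3.16% for *Cct7* (antisense *Pradc1*). *Cct2*, *Cct3*, *Cct4*, *Cct5* and *Hsp90ab1* share no exon base with a listed gene. The log2 fold changes of the 4 subunits without such bases were -0.45 to -0.55, with *Cct3*, *Cct4* and *Cct5* the smallest falls of the 8, and those of the 4 subunits with such bases were -0.52 to -0.66. Of the antisense genes, *Mrpl18* (-0.44, adjusted p = 0.00211), *Pradc1* (-0.43, adjusted p = 0.00440) and *Usp16* (-0.29, adjusted p = 0.0161) were called lower too by edgeR, and *Psph* was not called (0.057, adjusted p = 0.687). The part of shared reads in these values was not tested.

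*Hspa8* encodes HSC70, the constitutive cytosolic Hsp70, which binds exposed hydrophobic stretches of nascent and unfolded proteins (ENSMUSG00000015656, chr9:40800984-40810087, + strand). It was the gene with the most counts of the 10, at 5187, 4712, 4296 and 2951 CPM in *EpCAM+* replicates 1 to 4 and at 5821, 5699, 5379 and 3687 CPM in *EpCAM-* replicates 1 to 4. Replicate 4 was far below the others in both fractions, and the fractions overlapped. The mean was 4287 ± 962 against 5146 ± 991 CPM (SD, n = 4), and the difference did not pass the test (log2 fold change -0.26 ± 0.19 SE, adjusted p = 0.284, edgeR). Within same-numbered pairs, *EpCAM+* was at 89.1%, 82.7%, 79.9% and 80.1% of *EpCAM-* in pairs 1 to 4, lower in 4 of 4. With the replicate number as a block the difference was called lower (log2 fold change -0.27 ± 0.054 SE, adjusted p = 0.00368, edgeR), with nearly the same size and a smaller error. Without a block no left-out library brought it past the threshold (adjusted p 0.0933 to 0.565), and the log2 fold change was -0.13 without *EpCAM+* replicate 4 and -0.40 without *EpCAM-* replicate 4.

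The low level in replicate 4 was shared by stress-inducible heat shock genes. *Hspa1b*, an inducible Hsp70 nearly identical to *Hspa1a*, was at 445, 111, 136 and 30.0 CPM in *EpCAM+* replicates 1 to 4 and at 272, 153, 146 and 27.0 CPM in *EpCAM-* replicates 1 to 4. *Hsph1*, the HSP110 exchange factor for Hsp70, was at 142, 116, 83.0 and 51.7 CPM in *EpCAM+* replicates 1 to 4 and at 198, 176, 154 and 103 CPM in *EpCAM-* replicates 1 to 4. Both genes were highest in replicate 1 and lowest in replicate 4 in each fraction, as *Hspa8* was. The labels do not say what a replicate number shares.

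*Hsp90ab1* encodes HSP90-beta, the constitutive cytosolic Hsp90 that matures kinases and steroid receptors (ENSMUSG00000023944, chr17:45567775-45573271, - strand). It was at 3362, 3288, 3043 and 2756 CPM in *EpCAM+* replicates 1 to 4 and at 3816, 3917, 3540.0 and 3616 CPM in *EpCAM-* replicates 1 to 4. The fractions did not overlap, but the highest *EpCAM+* library lay close to the lowest *EpCAM-* library. The mean was 3112 ± 274 against 3722 ± 174 CPM (SD, n = 4), with a log2 fold change of -0.26 ± 0.093 SE (adjusted p = 0.0451, edgeR), just past the threshold. Within pairs *EpCAM+* was at 88.1%, 84.0%, 85.9% and 76.2% of *EpCAM-* in pairs 1 to 4. The call was lost when any library other than *EpCAM+* replicate 1 was left out (adjusted p 0.0524 to 0.106 over those 7 fits), with upper-quartile scaling (adjusted p = 0.169) and with library totals (adjusted p = 0.176). It held with the replicate number as a block (adjusted p = 0.00541) and with DESeq2 (adjusted p = 0.00367).

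The inducible relatives were compared with the constitutive genes within each library. *Hsp90aa1*, which encodes HSP90-alpha, was at 2166, 2062, 1984 and 1555 CPM in *EpCAM+* replicates 1 to 4 and at 2846, 2765, 2683 and 2605 CPM in *EpCAM-* replicates 1 to 4, and it was lower in *EpCAM+* cells (log2 fold change -0.49 ± 0.11 SE, adjusted p = 0.00541, edgeR). The counts of *Hsp90aa1* were 64.4%, 62.7%, 65.2% and 56.4% of those of *Hsp90ab1* in *EpCAM+* replicates 1 to 4 and 74.6%, 70.6%, 75.8% and 72.0% in *EpCAM-* replicates 1 to 4. The fractions did not overlap. The mean log2 ratio was -0.69 ± 0.095 in *EpCAM+* and -0.45 ± 0.046 in *EpCAM-* (SD, n = 4), a difference of -0.24 (p = 0.0286 by exact permutation of the 8 libraries, two-sided, which is as small as 4 against 4 can give). The exact test over the 4 pairs gave p = 0.125, which is the smallest it can give. *Hsp90aa1* thus fell further than *Hsp90ab1*, in 4 of 4 pairs, as ratios that do not overlap must show.

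The counts of *Hspa1a* and *Hspa1b* together, which share sequence and were summed, were 12.1%, 3.26%, 4.27% and 1.73% of those of *Hspa8* in *EpCAM+* replicates 1 to 4. They were 6.19%, 3.72%, 3.79% and 0.935% in *EpCAM-* replicates 1 to 4. The fractions overlapped. The mean log2 ratio was -4.60 ± 1.17 in *EpCAM+* and -5.06 ± 1.17 in *EpCAM-*, a difference of 0.46 that lay within the spread between replicates (p = 0.629, exact permutation test, two-sided). Its sign turned when *EpCAM+* replicate 1 (-0.058) or *EpCAM-* replicate 4 (-0.10) was left out.

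**Figure D3:**
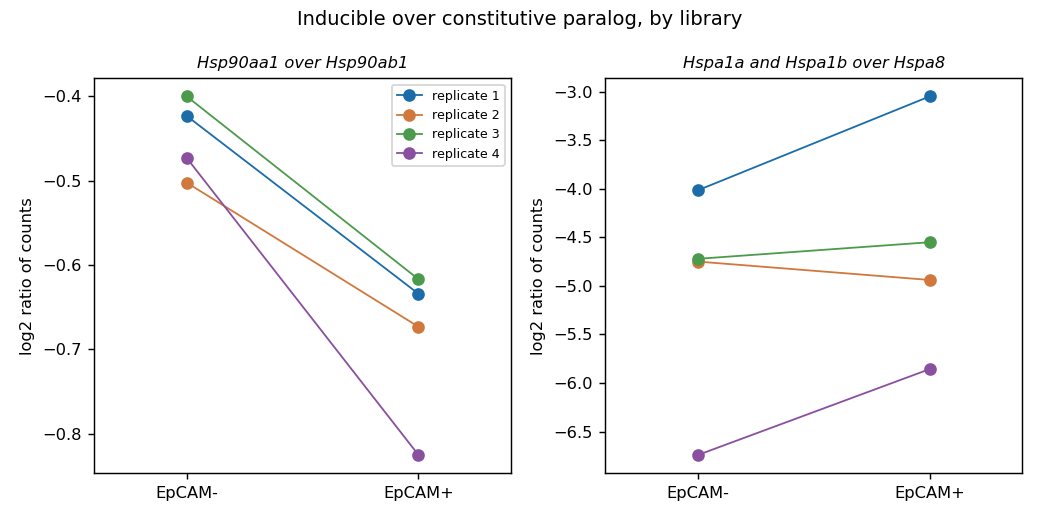
Log2 ratio of counts (y axis, with a scale of its own in each panel) of *Hsp90aa1* over *Hsp90ab1* (left) and of *Hspa1a* plus *Hspa1b* over *Hspa8* (right) in the *EpCAM-* and *EpCAM+* libraries, with lines joining same-numbered libraries. All 4 lines fall in the left panel, while in the right panel the spread between replicates (SD 1.17 in each fraction) exceeds the difference between the fractions.

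Other genes of cytosolic folding were taken from 10 lists with 80 genes. Of the 76 tested, 26 were lower and 5 higher in *EpCAM+* cells, and 45 did not pass the test, beside 20.8% lower and 21.8% higher among all tested genes. The median log2 fold change was -0.15 over the 76 genes, -0.53 over the 8 CCT subunits and 0.021 over all 13560 genes. The count of higher genes was 3 without *EpCAM+* replicate 1, without *EpCAM-* replicate 3 or without *EpCAM-* replicate 4. With upper-quartile scaling 24 of the 76 were lower and 7 higher, and with library totals 21 and 5. Over all 13560 tested genes the calls were 2818 lower and 2961 higher in the main fit. They were 2083 and 3642 with upper-quartile scaling, 2066 and 3476 with library totals, and 3353 and 3465 with the replicate block.

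Most genes of the chaperonin's partners did not pass the test, where 20.8% of all tested genes were called lower and 21.8% higher. Of the 6 prefoldin genes 2 were called, both lower, with a median of -0.21. These were *Pfdn6* (log2 fold change -0.48, adjusted p = 0.00324) and *Pfdn2* (log2 fold change -0.29, adjusted p = 0.00911), and *Pfdn4* did not pass the test (log2 fold change -0.39, adjusted p = 0.142, all by edgeR). *Pfdn6* was also the prefoldin gene with the highest level, at 158 ± 10.6 against 222 ± 28.2 CPM (SD, n = 4). The replicate block raised the 2 calls to 3, and library totals left 1, with *Pfdn2* at an adjusted p of 0.0509. The CCT cofactors *Pdcl*, *Pdcl3* and *Txndc9* lay between -0.085 and 0.058 and none was called by edgeR, with 0 at an unadjusted p under 0.05 and 0 by DESeq2. *Txndc9* had the smallest adjusted p (0.388), and the signs of *Txndc9* and *Pdcl3* turn positive with upper-quartile scaling or library totals. *Pdcl2* had 0 counts in all libraries and was not tested. Of the 6 genes of tubulin assembly after CCT, 1 was called, *Tbcd*, a cofactor that binds beta-tubulin (log2 fold change -0.38, adjusted p = 0.0190, edgeR). It lost the call without *EpCAM+* replicate 3 (adjusted p = 0.0503), and with the block 2 genes of the list were lower. *Arl2* (log2 fold change -0.23, adjusted p = 0.104), *Tbcc* (log2 fold change -0.14, adjusted p = 0.159) and *Tbcb*, the gene with the highest level (log2 fold change -0.027 ± 0.091 SE, with a positive sign under the other 2 scalings), were not called.

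The genes of proteins that CCT folds did not share one direction. Of 21 tested client genes, 7 were lower and 3 higher, beside 20.8% and 21.8% of all tested genes. Their median was -0.18. *Actb*, beta-actin and the client gene with the highest level, was higher in *EpCAM+* cells, at 8538, 9193, 10101 and 13105 CPM in *EpCAM+* replicates 1 to 4 and at 5036, 4899, 5172 and 6471 CPM in *EpCAM-* replicates 1 to 4. All 4 *EpCAM+* libraries lay above all 4 *EpCAM-* libraries (log2 fold change 0.92 ± 0.15 SE, adjusted p = 0.00116, edgeR). *Actg1* (log2 fold change 0.32, adjusted p = 0.0391) and *Tuba1a* (log2 fold change 0.57, adjusted p = 0.00717) were the other genes called higher, and *Actg1* lost its call without any library but *EpCAM+* replicate 2 and *EpCAM-* replicate 1 (adjusted p up to 0.1004). *Ccne1*, the cyclin E1 that drives entry into S phase, was lower, at 20.1, 19.3, 16.3 and 20.6 CPM in *EpCAM+* replicates 1 to 4 and at 69.5, 74.8, 91.2 and 122 CPM in *EpCAM-* replicates 1 to 4 (log2 fold change -2.23 ± 0.17 SE, adjusted p = 9.33e-05, edgeR). *Rack1*, a WD repeat protein of the small ribosomal subunit, was lower too (log2 fold change -0.68, adjusted p = 0.00184, edgeR), as were *Tuba4a*, *Gnb1*, *Hdac3*, *Cdc20* and *Tubg1*, between -0.33 and -0.25. The last 3 lost their calls in 4, 4 and 5 of the 8 fits that leave out a library, among them those without *EpCAM+* replicate 3 and without *EpCAM-* replicate 4 (adjusted p up to 0.0707, 0.0986 and 0.106). *Tubb2b* had 1 to 19 counts per library and was not tested. Upper-quartile scaling and library totals each left 4 client genes lower, and the block gave 11 lower and 4 higher.

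**Figure D4:**
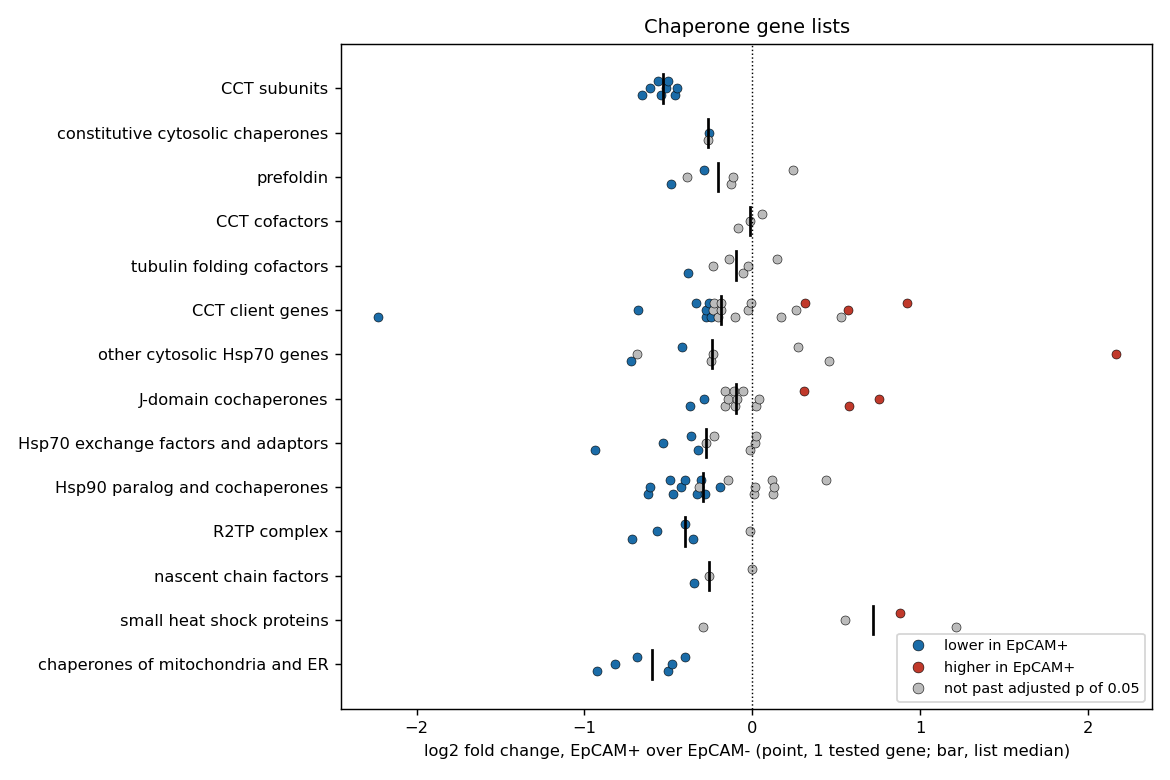
Log2 fold change (x axis, *EpCAM+* over *EpCAM-*) of every tested gene of 14 lists, 1 point per gene, coloured by call, with the list median as a black bar. The 8 CCT subunits lie close together between -0.66 and -0.45, the 6 mitochondrial and ER chaperones were likewise all called lower, and every other list holds at least 1 gene that was not called.

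Among the partners of HSC70, the remaining Hsp70 genes were mixed, with 2 of 8 tested lower and 1 higher. The shares over all tested genes were 20.8% lower and 21.8% higher. *Hspa4*, an HSP110-type exchange factor with the highest mean level of the list, was at 137, 134, 147 and 139.9 CPM in *EpCAM+* replicates 1 to 4 and at 196, 221, 245 and 259.6 CPM in *EpCAM-* replicates 1 to 4, with no overlap (log2 fold change -0.72 ± 0.090 SE, adjusted p = 0.000339, edgeR). *Hspa14*, an Hsp70 of the ribosome-associated complex, was lower as well (log2 fold change -0.42, adjusted p = 0.00280). *Hspa12b* was the gene that rose (log2 fold change 2.16, adjusted p = 0.000982, edgeR), at 65 to 101 counts in *EpCAM+* and 7 to 31 counts in *EpCAM-* libraries. *Hspa1b*, whose values are above, was not called (log2 fold change 0.27, adjusted p = 0.790). *Hspa12a* had at most 2 counts and was not tested. The replicate block raised the lower genes from 2 to 4, *Hsph1* among them (adjusted p 0.0735 without and 0.000367 with the block).

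Of 14 J-domain genes, whose proteins stimulate the ATPase of Hsp70, 2 were lower and 3 higher, beside 20.8% and 21.8% of all tested genes. *Dnajc2*, of the ribosome-associated complex (log2 fold change -0.37, adjusted p = 0.00346), and *Dnaja2* (log2 fold change -0.28, adjusted p = 0.00860) were the lower ones. *Dnajb2* (log2 fold change 0.58, adjusted p = 0.0155), *Dnaja4* (log2 fold change 0.76, adjusted p = 0.0418) and *Dnajb14* (log2 fold change 0.31, adjusted p = 0.0467) were the higher ones by edgeR, and the last 2 lost their calls in 6 of 8 fits that leave out a library (adjusted p up to 0.106 and 0.146), keeping them without *EpCAM+* replicate 4 or *EpCAM-* replicate 1 for *Dnaja4* and without *EpCAM+* replicate 2 or 3 for *Dnajb14*. *Dnaja1*, with the highest level, was not called (log2 fold change 0.041, adjusted p = 0.899). Of 9 exchange factors and adaptors, 4 were called, all lower. These were *Bag2*, at 53.2 ± 7.05 against 102 ± 15.1 CPM (SD, n = 4), with a log2 fold change of -0.94 (adjusted p = 0.000464), *Bag1*, with the highest level (log2 fold change -0.53, adjusted p = 0.00128), *Hspbp1* (log2 fold change -0.37, adjusted p = 0.00580) and *St13*, which encodes the HIP cochaperone (log2 fold change -0.33, adjusted p = 0.00812, all by edgeR).

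The list of HSP90-alpha and the HSP90 cochaperones had 10 of 18 genes called, all lower, beside 20.8% of all tested genes. Its median was -0.29. *Ppid*, the cyclophilin 40 cochaperone (log2 fold change -0.62, adjusted p = 0.000519), *Fkbp4*, the FKBP52 cochaperone of steroid receptors (log2 fold change -0.61, adjusted p = 0.00101), and *Ptges3*, which encodes p23 (log2 fold change -0.42, adjusted p = 0.00105), had the smallest adjusted p by edgeR, and *Hsp90aa1* the highest level. With upper-quartile scaling 9 were lower and 2, *Sugt1* and *Tomm34*, were higher, and with library totals 7 were lower. The R2TP complex works with HSP90 in assembling large complexes, and 4 of its 5 genes were called, all lower. *Ruvbl2*, an AAA+ ATPase, was at 193, 223, 196 and 215 CPM in *EpCAM+* replicates 1 to 4 and at 289, 348, 358 and 367 CPM in *EpCAM-* replicates 1 to 4, with no overlap (log2 fold change -0.72 ± 0.090 SE, adjusted p = 0.000358, edgeR). *Ruvbl1* (log2 fold change -0.40, adjusted p = 0.00155), which had the highest level of the list, *Wdr92* (log2 fold change -0.57, adjusted p = 0.00265) and *Rpap3* (log2 fold change -0.35, adjusted p = 0.0127) were lower too, and *Pih1d1* was not called (log2 fold change -0.012, adjusted p = 0.921, with a positive sign under the other 2 scalings).

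Of 3 genes for nascent chain factors *Btf3* was lower (log2 fold change -0.35, adjusted p = 0.0291, edgeR), a call that was lost with upper-quartile scaling, with library totals and without *EpCAM+* replicate 1 or 3 or *EpCAM-* replicate 2 or 4 (adjusted p up to 0.0685), and the block gave 2 lower. *Naca*, with the highest level, (log2 fold change -0.25, adjusted p = 0.0943) and *Btf3l4* (adjusted p = 0.974) were not called. Over all tested genes 20.8% were called lower and 21.8% higher, and 24.7% lower with the block. A single call in a list of 3 or 4 genes is thus not read as a result about the list. Of 4 tested small heat shock protein genes 1 was called, *Hspb11*, which rose (log2 fold change 0.88, adjusted p = 0.00448, edgeR) and whose product is known as the ciliary transport protein IFT25. *Hspb1* (log2 fold change 1.22, adjusted p = 0.180), *Cryab* (log2 fold change 0.55, adjusted p = 0.277) and *Hspb6*, with the highest level, (log2 fold change -0.30, adjusted p = 0.310) were not called. With the block the higher genes of this list were 2, *Hspb1* among them, beside 3465 of all 13560 tested genes. *Hspb2* and *Hspb8*, with at most 17 counts per library, were not tested.

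Of 4 tested regulators of chaperone transcription 2 were called lower and 1 higher, beside 20.8% and 21.8% of all tested genes. *Hsf1*, the main heat shock factor, was lower (log2 fold change -0.22, adjusted p = 0.0149), *Hsf2* was higher (log2 fold change 0.74, adjusted p = 0.0239) and *Myc* was lower (log2 fold change -0.40, adjusted p = 0.0265, all by edgeR). *Hsf2* had low counts, 49 to 76 in *EpCAM+* and 25 to 41 in *EpCAM-* libraries. *Myc*, the regulator gene with the highest level, was at 353, 452, 504 and 452 CPM in *EpCAM+* replicates 1 to 4 and at 477, 578, 659 and 615 CPM in *EpCAM-* replicates 1 to 4, with overlapping fractions. The calls of *Hsf1* and *Myc* were lost with upper-quartile scaling (adjusted p 0.102 and 0.0688) and with library totals (0.130 and 0.0684). Without *EpCAM+* replicate 1, *EpCAM-* replicate 3 or *EpCAM-* replicate 4 the calls of *Myc* and *Hsf2* were lost (adjusted p up to 0.0777 and 0.0657), and that of *Hsf2* was lost without *EpCAM+* replicate 2 or 3 too. *Hsf4* had at most 2 counts and was not tested, and *Hsbp1*, whose product binds heat shock factor 1, was not called (log2 fold change 0.18, adjusted p = 0.128, edgeR). *Hsbp1* was called higher with the replicate block (adjusted p = 0.0389), with upper-quartile scaling (0.0445) and with library totals (0.0466), which made the higher regulators 2 in each. Over all 13560 tested genes, 3465, 3642 and 3476 were higher in these settings, respectively.

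Lower chaperone levels in *EpCAM+* cells were not limited to the cytosol. The 6 genes of the main chaperones of mitochondria and the endoplasmic reticulum were called lower, 6 of 6, with a median of -0.60, where 20.8% of all genes tested were called lower, and 45.0% of those expressed at least as highly as the lowest of the 10 genes. *Hspe1* and *Trap1* had a mean CPM over both fractions below that level. *Hspd1*, the mitochondrial HSP60 that is the distant relative of CCT, was at 619.8, 614, 631 and 563 CPM in *EpCAM+* replicates 1 to 4 and at 1049, 1080.5, 1176 and 1296 CPM in *EpCAM-* replicates 1 to 4. Every *EpCAM+* library was below every *EpCAM-* library (log2 fold change -0.92 ± 0.088 SE, adjusted p = 0.000165, edgeR), and whether the difference exceeds those of the CCT subunits was not tested. Its cochaperonin *Hspe1* (log2 fold change -0.82, adjusted p = 0.000715), the mitochondrial Hsp70 gene *Hspa9* (log2 fold change -0.69, adjusted p = 0.00105) and *Trap1*, the mitochondrial Hsp90 (log2 fold change -0.40, adjusted p = 0.00312), were lower as well. In the endoplasmic reticulum *Hsp90b1*, which encodes GRP94 (log2 fold change -0.50, adjusted p = 0.00454), and *Hspa5*, which encodes BiP and had the highest level of the 6 (log2 fold change -0.48, adjusted p = 0.0216), were lower by edgeR. *Hspa5* lost the call with upper-quartile scaling (adjusted p = 0.0518), with library totals (adjusted p = 0.0559) and without *EpCAM+* replicate 4, *EpCAM-* replicate 2 or *EpCAM-* replicate 3 (adjusted p up to 0.0564).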

How the data were processed

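The 8 RNA-Seq libraries were made by the authors with SMART-Seq v4 from *Zeb1-/-* LSK cells and sequenced as 150-bp paired ends. The authors give 4 mice per genotype, and the sources used here do not say whether the same mice gave both fractions. The authors aligned reads with STAR 2.6.1d to GRCm38.p6, counted them per gene with featureCounts 1.5.0-p3 and deposited whole-number counts. They also deposited FPKM, used here only for the order of the CCT subunits, and their own DESeq2 1.20.0 fold changes with p-values, between the fractions and between same-numbered libraries, which were not used. The annotation release, the strand setting and the handling of multimapping reads are not given in the sources used here. Reads carry no molecular identifiers, so counts per library (14114491 to 17073546) limit counting error only.

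Counts were filtered (filterByExpr), scaled (TMM) and tested two-sided in R 4.3.3 with edgeR 4.0.16, and the procedure was tested on simulated data. Standard errors were derived from the F statistic. Log2 CPM used a prior count of 2. Ratios of counts used a pseudocount of 0.5 and exact permutation tests. Tables and figures used Python 3.11.15 and scipy 1.17.1. Alternatives were DESeq2 1.42.0, other scalings (DESeq2 size factors, upper quartile, library totals), looser and stricter filters (at least 1 count in some library, at least 10 in each), protein-coding genes only, the replicate block and each library left out. The labels do not say what a replicate number shares, but same-numbered libraries deviated alike from their fraction means (correlation across genes 0.205 to 0.356 in 4 pairs, -0.22 to 0.040 in the 12 others). The replicate number was therefore fitted as a block in an alternative run. The main calls come from the fit without pairing. The p-values measure the spread between these samples. No 2 libraries of a fraction agreed within sampling noise.

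The 10 genes, the gene lists and the marker lists were chosen with earlier results of these data known. Genes named are the 10, in each list of chaperones, clients or regulators the 3 tested genes with the smallest adjusted p, the gene with the highest mean CPM, genes called against the list's majority and untested genes, inducible or organellar paralogs, *Epcam*, *Zeb1*, genes overlapping a member and the 5 genes most like the CCT mean. Other genes were named after their values were seen, and the markers of the lineage gate are not reported here.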

Additional observations from a re-analysis of the deposited data

Results flagged for a closer look

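In 2 of 24 groups of 4 libraries, 1 library stood apart from the other 3 (the gap to the nearest library as a share of the whole range, above Dixon's critical value), a pattern that chance gives in about 1 of 20 groups. For *Cct4* in the *EpCAM+* fraction replicate 4 was low, with a gap of 0.860 of the range. For *Cct5* in the *EpCAM-* fraction replicate 1 was low, with a gap of 0.938 of the range. Without these libraries both genes were still called lower in *EpCAM+* cells.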

How the results depend on the processing

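Of 159 refits of single genes among the 10, 147 kept their side of the threshold and none reversed. The exceptions were *Hspa8*, called with the replicate block (log2 fold change -0.27), and 11 refits of *Hsp90ab1*, 2 by scaling, 2 by filter (adjusted p 0.0896 and 0.0745) and 7 without a library. The block changed no other call among the 10. The number of lower genes was 8 to 10 over the settings, and among protein-coding genes alone it was 8 of 9, because *Cct6a* is listed as another biotype. Of the 76 other chaperone genes 21 to 34 were lower over the settings and 3 to 7 higher, with 3 to 6 higher when a library was left out. Among single lists, client genes went from 7 lower to 4 with upper-quartile scaling or library totals and to 11 with the block, Hsp70 genes from 2 to 4 and tubulin cofactors from 1 to 2 with the block, and nascent chain factors from 1 to 0 and regulators from 2 to 0 with those scalings. Prefoldin genes went from 2 lower to 1 with library totals and to 3 with the block, and proliferation genes from 13 to 9 with either scaling. The calls over all 13560 tested genes moved too, from 2818 lower and 2961 higher in the main fit. They were 2083 and 3642 with upper-quartile scaling, 2066 and 3476 with library totals, and 3353 and 3465 with the block. The counts of the lists were not tested against this shift. The ratio of *Hsp90aa1* to *Hsp90ab1* kept its direction at -0.24 in the exact test over pairs (replicate block, p = 0.125) and ranged from -0.26 to -0.19 with 1 library left out (p = 0.0571 each), where these designs allow no smaller p. The ratio of *Hspa1a* and *Hspa1b* to *Hspa8* ranged from -0.10 to 0.88 with 1 library left out, reversed to -0.058 and -0.10. The cause of these changes was not tested. With 4 libraries per fraction and no control mice, the values describe these fractions of *Zeb1-/-* cells alone.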
